A study of Mus musculus with 9 samples.

Results

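Transcript levels of 7 genes of the GABA-A receptor family were compared in the brain cortex of B6, C3H and WSB mice. The genes were Gabra2, Gabra3, Gabra4, Gabra5, Gabrb1, Gabrb2 and Gabrg1. They were picked by name from the receptor family, with earlier results of these data known, and they were 7 of the 19 receptor subunit genes in a deposited table of 54532 genes. Each strain was represented by the cortex of 3 adult males of 8 to 12 weeks, and no mouse carried an engineered allele or was given a treatment in the labels. B6 was labelled C57BL6/J, C3H was labelled C3H/HeJ and WSB, a wild-derived strain, was labelled WSB/EiJ. Each value is in FPKM, the read pairs on a gene scaled to the length of its exons and to the size of the library. Reads on genes per library numbered from 17651630 to 21562429 for B6, from 19042306 to 19433751 for C3H and from 16317439 to 17784118 for WSB.

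GABA-A receptors are chloride channels built from 5 subunits around a pore, and they carry most of the fast inhibition in the cortex. The usual receptor holds alpha, beta and gamma subunits, with GABA binding between alpha and beta and benzodiazepines binding between alpha and gamma. The alpha subunit sets much of the drug sensitivity and the place of the receptor in the cell, so a cell that uses another alpha gene makes a receptor with other properties. C57BL/6J mice are known to carry a deletion in the intron of Gabra2 before exon 5, beside the splice acceptor of that exon.

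Gabra2, Gabrg1, Gabra4 and Gabrb1 lie within one stretch of chromosome 5 of the GRCm38 build. Gabrg1 was placed at chr5:70751047-70842617 on the minus strand and Gabra2 at chr5:70957597-71095849 on the minus strand, with 114979 bases between them. Gabra4 was placed at chr5:71569749-71658308 on the minus strand, 473899 bases beyond Gabra2, with Cox7b2 between them. Gabrb1 was placed at chr5:71658113-72149037 on the plus strand, head to head with Gabra4. Exons of Gabra4 and Gabrb1 share 46 bases on opposite strands, and whether reads were counted by strand is not given in the sources used here, so reads within those 46 bases cannot be assigned to one gene. The other 3 genes lie elsewhere, Gabra3 at chrX:72432681-72656848 and Gabra5 at chr7:57407672-57510059, both on the minus strand, and Gabrb2 at chr11:42419757-42629028 on the plus strand. Gabra5 shares 148 exonic bases with Gm9962 on the opposite strand.

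The GENCODE M21 annotation gives Gabra2 6 transcripts, of which 1 is protein coding (Gabra2-203, with 10 exons) and 2 are marked for nonsense-mediated decay, the pathway that destroys RNA with an early stop. The joins around exon 5 are printed 5′ to 3′ from the GENCODE transcripts because these are the places where the annotated transcripts part. Exon 5 of Gabra2-203 spans chr5:71014416-71014636, 221 bases on the minus strand. Gabra2-204 starts the same exon 61 bases later, at an inner acceptor, so its exon 5 has 160 bases. Gabra2-201 skips exon 4, which has 68 bases, and Gabra2-206 leaves out exons 5 to 8, which have 601 bases together. None of these 3 lengths is a multiple of 3, so leaving any of them out shifts the reading frame relative to Gabra2-203. Capitals mark the 61 bases that Gabra2-204 lacks, at chr5:71014576-71014636.
Gabra2-203, exon 4 to exon 5: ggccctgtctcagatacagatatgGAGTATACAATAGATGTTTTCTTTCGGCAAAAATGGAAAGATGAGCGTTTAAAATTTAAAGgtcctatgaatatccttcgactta
Gabra2-204, exon 4 to its shorter exon 5: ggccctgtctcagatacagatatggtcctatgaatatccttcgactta
Gabra2-201, the exon before exon 4 to exon 5: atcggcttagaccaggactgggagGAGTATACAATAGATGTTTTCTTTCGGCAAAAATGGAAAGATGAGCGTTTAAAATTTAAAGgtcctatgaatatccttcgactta
Gabra2-206, exon 4 to part of exon 9: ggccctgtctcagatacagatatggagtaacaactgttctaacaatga
The deposited length of Gabra2, 7640 bases, equals the union of the exons of all 6 transcripts. The FPKM values therefore add all transcripts together, and no join was counted on its own.

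The start of Gabra2 is printed because this gene carried the difference between the strains. The paper states that the mouse reference assembly comes from B6. No C3H or WSB sequence is therefore shown, here or in the joins above, and the strains cannot be compared by sequence. RefSeq (GRCm38.p6) places the window from 250 bases before to 50 bases after the start at chr5:71095800-71096099 on the minus strand. Capitals mark the GC box (GGGCGG, 2 matches) and the CCAAT box (CCAAT, 1 match), each searched on both strands with no overlap between matches.
Gabra2 start: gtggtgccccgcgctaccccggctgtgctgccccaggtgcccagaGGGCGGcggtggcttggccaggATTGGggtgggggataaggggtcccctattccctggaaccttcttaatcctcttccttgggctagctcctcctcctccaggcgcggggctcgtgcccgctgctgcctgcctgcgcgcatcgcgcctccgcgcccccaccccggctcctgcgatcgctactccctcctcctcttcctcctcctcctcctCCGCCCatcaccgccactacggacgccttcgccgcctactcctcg
The window has a GC content of 70.0% and 25 CG pairs, against medians of 52.7% and 7 over 32851 windows of the same length. A GC box match was found in 35.7% of those windows and a CCAAT match in 37.4%, so these matches are common ones.

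Gabra2, which encodes the alpha 2 subunit of receptors found on the axon initial segment and at synapses of limbic and cortical neurons, was the member that differed from B6. In the B6 mice its level was 7.15, 7.58 and 5.95 FPKM, from 969 to 1170 reads. In the C3H mice it was 16.8, 19.1 and 13.6 FPKM, from 2013 to 2831 reads. In the WSB mice it was 25.1, 20.9 and 16.1 FPKM, from 2247 to 3189 reads. All 6 C3H and WSB mice stood above all 3 B6 mice, while the C3H and WSB mice overlapped. In bulk tissue, fewer cells that express the gene and less RNA per cell cannot be told apart.

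**Figure D1:**
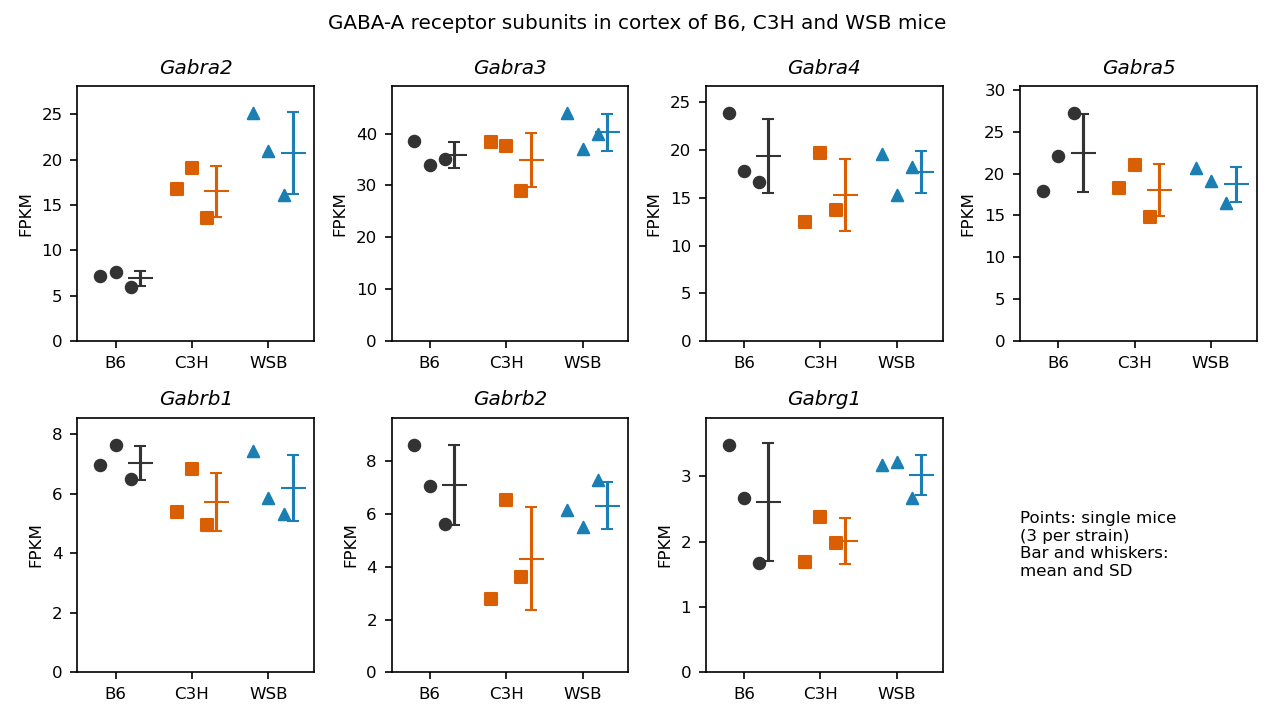
FPKM (y axis, from 0) of the 7 subunit genes in each mouse of the 3 strains (x axis), with 1 point per mouse and the mean and SD beside the points. Gabra2 in B6 (5.95 to 7.58 FPKM) lies below every C3H and WSB mouse, and Gabrg1 in WSB (2.66 to 3.22 FPKM) lies above every C3H mouse.

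Gabra2 was 6.89 FPKM ± 0.845 (SD, n = 3) in B6, 16.5 ± 2.78 in C3H and 20.7 ± 4.50 in WSB. Against B6, the level was 2.94-fold higher in WSB, with a 95% interval of 2.24 to 3.87 (log2 fold change 1.56 ± 0.17 SE, limma adjusted p = 0.00227). It was 2.36-fold higher in C3H, with a 95% interval of 1.86 to 2.99 (log2 fold change 1.24 ± 0.15 SE, limma adjusted p = 0.00358). Both comparisons use the same 3 B6 mice. Between WSB and C3H the log2 fold change was 0.32, with a 95% interval of -0.11 to 0.75, and did not pass (adjusted p = 0.335). By p-value Gabra2 stood at place 246 of 20746 genes tested for WSB against B6 and at place 249 of 20602 for C3H against B6. The self-test of limma on simulated WSB and B6 libraries found 70.7% of the 2-fold changes and 95.9% of the 4-fold changes, but 21.9% of the 1.5-fold changes, so a small difference in another subunit could be missed.

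Of the 7 members, 1 passed in WSB against B6, where 5.9% of all genes tested passed, 2.81% as higher in WSB and 3.09% as lower. Again 1 of 7 passed in C3H against B6, where 4.64% of all genes passed, 2.38% as higher in C3H and 2.26% as lower. In both cases it was Gabra2, higher than in B6. For WSB against C3H the count was 0 of 7 with limma against 5.74% of all genes, 2.61% as higher in WSB and 3.13% as lower, with 1 member at an unadjusted p under 0.05. With voom weights on the recovered reads the counts were 1 of 7 in each comparison, against 7.43% of all genes for WSB against B6, 7.22% for C3H against B6 and 8.53% for WSB against C3H. The median log2 fold change of the members was -0.12 for WSB against B6, -0.30 for C3H against B6 and 0.23 for WSB against C3H, while the median over all genes tested was 0.0025, -0.0038 and 0.0089. The medians are from values without removal of the GC trend. Over genes, the log2 fold change followed GC content at a Spearman rho of 0.48 in C3H against B6, and the members are low in GC. Values of the 2 strains did not overlap for 1 of the 7 members in each comparison, against 26.0% of all genes in WSB against B6, 28.9% in C3H against B6 and 28.6% in WSB against C3H.

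**Figure D2:**
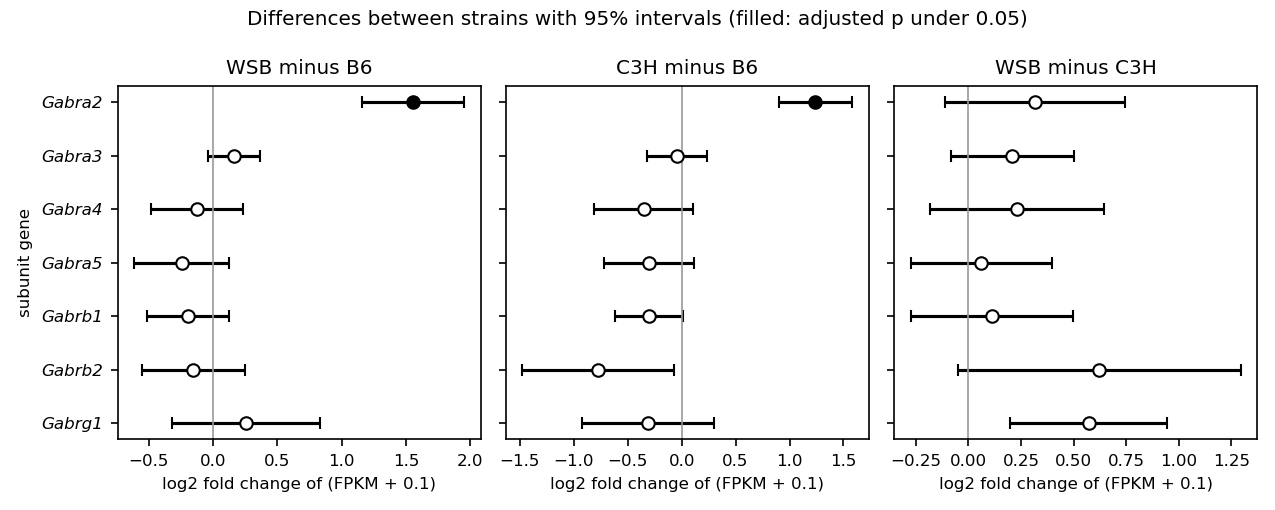
Log2 fold change of (FPKM + 0.1) on the x axis for each of the 7 subunit genes on the y axis, in 3 panels for WSB minus B6, C3H minus B6 and WSB minus C3H, with 95% intervals from limma. Filled points mark an adjusted p under 0.05, which are Gabra2 in the first panel (1.56) and in the second (1.24).

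Among the other alpha subunits no difference passed. Gabra3, which encodes the alpha 3 subunit and is X-linked, was the highest of the 7 members. It was 38.7, 33.9 and 35.0 FPKM in B6, 38.4, 37.5 and 29.0 FPKM in C3H and 43.9, 36.9 and 39.8 FPKM in WSB. The ranges of the 3 strains overlapped, with log2 fold changes of 0.16 (95% interval -0.041 to 0.37, limma adjusted p = 0.352) for WSB against B6 and -0.045 (-0.33 to 0.24, adjusted p = 0.848) for C3H against B6.

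Gabra4 encodes the alpha 4 subunit, which pairs mainly with delta in receptors outside the synapse. It was 23.9, 17.8 and 16.6 FPKM in B6, 12.5, 19.7 and 13.7 FPKM in C3H and 19.6, 15.3 and 18.2 FPKM in WSB. C3H replicates 1 and 3 lay below all B6 mice, but C3H replicate 2 lay among them. The log2 fold change was -0.12 (95% interval -0.48 to 0.23, limma adjusted p = 0.716) for WSB against B6 and -0.35 (-0.81 to 0.11, adjusted p = 0.307) for C3H against B6.

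Gabra5 encodes the alpha 5 subunit, known for tonic inhibition in the hippocampus and deep cortex. Its values were 17.9, 22.1 and 27.2 FPKM in B6, 18.3, 21.05 and 14.8 FPKM in C3H and 20.6, 19.1 and 16.4 FPKM in WSB. The spread among the B6 mice covered most of the other values. The log2 fold change was -0.24 (95% interval -0.61 to 0.12, limma adjusted p = 0.454) for WSB against B6 and -0.30 (-0.72 to 0.11, adjusted p = 0.329) for C3H against B6. For WSB against C3H, the log2 fold changes of these 3 alpha subunits were 0.21, 0.23 and 0.061, with adjusted p from 0.348 to 0.829.

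FPKM is per length, so the levels of the alpha subunits can be set beside each other. The length is the union of the exons of all annotated transcripts, including exons outside the coding ones. Shares and the order of levels between genes therefore depend on the annotation, while each gene has the same length in every strain. Gabra2 made up 5.57% ± 0.822 (SD, n = 3) of the summed FPKM of all alpha subunit genes in B6, 14.3% ± 0.646 in C3H and 14.8% ± 2.34 in WSB. By mouse the share was 5.49, 6.43 and 4.79% in B6, 15.0, 13.9 and 13.9% in C3H and 16.2, 16.1 and 12.1% in WSB. No B6 mouse reached the share of any C3H or WSB mouse, and the C3H range lay within the WSB range. The summed level of these genes was 124 FPKM ± 6.19 in B6, 116 ± 20.2 in C3H and 139 ± 13.4 in WSB, and these sums overlapped between the strains.

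**Figure D3:**
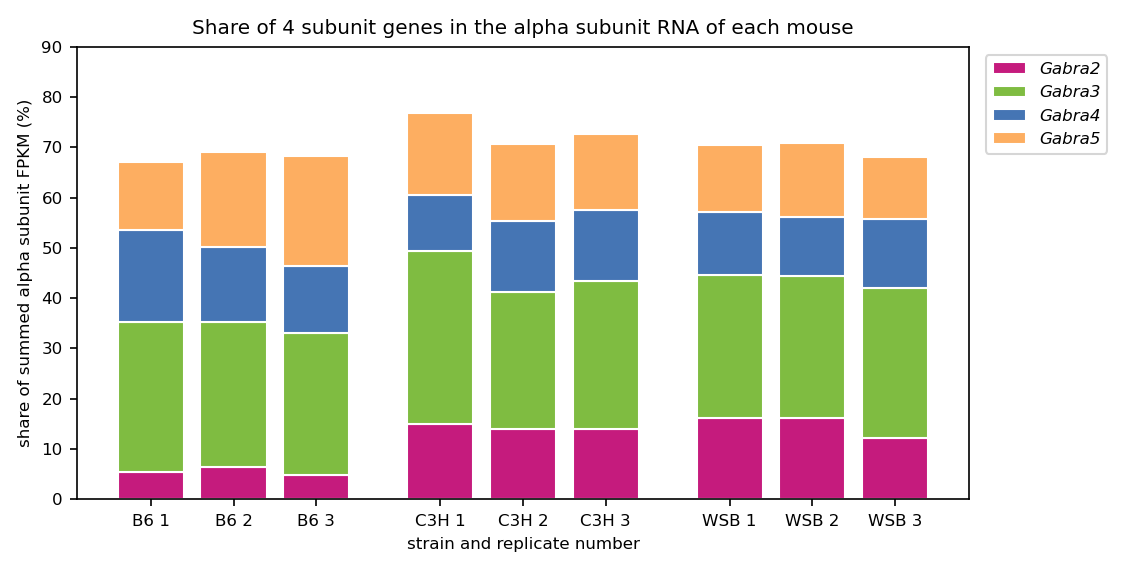
Share of the summed alpha subunit FPKM (y axis, %) held by Gabra2, Gabra3, Gabra4 and Gabra5 in each of the 9 mice (x axis). The Gabra2 band is 4.79 to 6.43% in the B6 mice and 12.1 to 16.2% in the C3H and WSB mice, while the band of Gabra3 is the widest of the 4 in every mouse.

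The other alpha shares moved less. Gabra3 took 28.9% ± 0.749 (SD, n = 3) of the alpha FPKM in B6, 30.4% ± 3.60 in C3H and 28.9% ± 0.885 in WSB. Gabra4 took 15.6% ± 2.50, 13.2% ± 1.72 and 12.7% ± 0.967, and Gabra5 took 18.1% ± 4.12, 15.6% ± 0.650 and 13.4% ± 1.16, in the same order. Shares within a library are not independent of each other, since a larger share of Gabra2 lowers the rest.

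In the order of mean FPKM among the 19 subunit genes, Gabra2 was the 10th in B6, the 7th in C3H and the 6th in WSB. In B6 its values overlapped those of Gabrb1 and Gabrb2, the genes just above it, and lay clear of Gabrg1 below it. In C3H and WSB its values overlapped those of Gabra4 and Gabra5 instead. Gabra3 was the 3rd in B6, the 1st in C3H and the 2nd in WSB. Gabrg1 was the lowest member in all 3 strains, at 11th, 12th and 11th place.

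Beta subunits form the other side of the GABA site, and the beta subunits in the list did not pass in any comparison. Gabrb1 was 6.97, 7.64 and 6.49 FPKM in B6, 5.37, 6.82 and 4.95 FPKM in C3H and 7.42, 5.84 and 5.31 FPKM in WSB. The C3H and B6 ranges overlapped through C3H replicate 2. The log2 fold change was -0.30 for C3H against B6 (95% interval -0.62 to 0.011, limma adjusted p = 0.219), -0.19 for WSB against B6 (-0.51 to 0.13, adjusted p = 0.500) and 0.11 for WSB against C3H (-0.27 to 0.50, adjusted p = 0.716).

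Gabrb2 encodes the beta 2 subunit, found in many receptors of the cortex. It was 8.61, 7.04 and 5.61 FPKM in B6, 2.79, 6.52 and 3.61 FPKM in C3H and 6.15, 5.51 and 7.27 FPKM in WSB. C3H replicates 1 and 3 were the lowest of the 9 mice, and C3H replicate 2 fell among the B6 and WSB mice. The log2 fold change was -0.78 for C3H against B6 (95% interval -1.48 to -0.074, unadjusted p = 0.0345, limma adjusted p = 0.177), -0.15 for WSB against B6 (-0.55 to 0.25, adjusted p = 0.680) and 0.62 for WSB against C3H (-0.048 to 1.29, adjusted p = 0.235).

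Gabrg1 encodes the gamma 1 subunit, which gives receptors a weak response to benzodiazepines. It was 3.48, 2.66 and 1.68 FPKM in B6, 1.68, 2.38 and 1.97 FPKM in C3H and 3.16, 3.22 and 2.66 FPKM in WSB, from 246 to 490 reads. All WSB mice stood above all C3H mice, and the B6 mice covered both. WSB against C3H gave a log2 fold change of 0.57 (95% interval 0.20 to 0.95), which did not pass over all genes (limma adjusted p = 0.0898). Against B6 the log2 fold change was 0.26 (-0.32 to 0.84, adjusted p = 0.622) in WSB and -0.31 (-0.93 to 0.30, adjusted p = 0.491) in C3H.

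C3H replicate 2 stood apart from the other C3H mice, with a chi-square per gene of 20.7 and 22.0 against them where C3H replicates 1 and 3 differed by 7.55. B6 replicate 1 also stood apart, though less, at 12.2 and 17.5 against B6 replicates 2 and 3, which differed by 7.29. Without C3H replicate 2, 3 of the 7 members passed in C3H against B6, where 11.2% of all genes then passed. These were Gabra2 (log2 fold change 1.13, limma adjusted p = 0.0102), Gabrb1 (-0.44, adjusted p = 0.0491) and Gabrb2 (-1.11, adjusted p = 0.0268). In WSB against C3H without that mouse, 2 of 7 passed against 9.71% of all genes, Gabrb2 (0.96, adjusted p = 0.0255) and Gabrg1 (0.69, adjusted p = 0.0412). With voom weights, Gabrg1 was the member that passed in WSB against C3H (0.59, adjusted p = 0.0320). The calls on Gabrb1, Gabrb2 and Gabrg1 thus turn on 1 mouse or on the weighting, whereas Gabra2 passed against B6 under each of 18 alternatives, with log2 fold changes of 1.41 to 1.73 in WSB and 1.13 to 1.55 in C3H.

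The members are AU-rich transcripts, with GC contents from 35.3 to 47.1% against a median of 49.6% over tested genes. Across genes of at least 1 FPKM, the log2 fold change correlated with GC content at a Spearman rho of 0.48 for C3H against B6, -0.40 for WSB against C3H and 0.11 for WSB against B6. Genes are not independent replicates, so these are descriptions. With each library's GC trend removed, Gabra2 was higher by a log2 fold change of 1.52 in C3H (limma adjusted p = 0.000316) and 1.63 in WSB (adjusted p = 0.000905) than in B6, and WSB minus C3H was 0.12 (adjusted p = 0.656). The difference of Gabrg1 between C3H and B6 changed from -0.31 to 0.037 and that of Gabra3 from -0.045 to 0.11. That of Gabrb2 was -0.65 (adjusted p = 0.189).

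Of the 12 subunit genes outside the list, Gabra6, Gabrp, Gabrr1 and Gabrr3 were under 0.1 FPKM on average in every strain and were not tested. None of the 8, 7 and 8 genes tested in WSB against B6, C3H against B6 and WSB against C3H passed limma, and 2, 2 and 3 of them had an unadjusted p under 0.05. Gabrq, the theta subunit, was 2.09 FPKM and Gabre, the epsilon subunit, was 0.976 FPKM in WSB replicate 2, while the other 8 mice had at most 0.685 and 0.261 FPKM. For WSB against B6 the log2 fold changes were 1.61 (adjusted p = 0.177) for Gabrq and 0.80 (adjusted p = 0.627) for Gabre, and for WSB against C3H they were 1.65 (adjusted p = 0.125) and 1.35 (adjusted p = 0.301).

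Genes whose products assemble, traffic or anchor the receptor were followed as a list of 20, all of which were tested. In WSB against B6, 1 of 20 passed, near the share of 5.9% over all genes. It was Gabarapl2, a relative of the trafficking protein GABARAP that is known mainly for autophagy. Gabarapl2 was 46.3 to 47.9 FPKM in B6 and 56.1 to 62.1 FPKM in WSB (log2 fold change 0.33, limma adjusted p = 0.0276), and it did not pass under 8 of the 18 alternatives. In C3H against B6 and in WSB against C3H, 0 of 20 passed limma, with 3 and 5 at an unadjusted p under 0.05. In C3H against B6 the log2 fold change of Zdhhc3, a palmitoyltransferase, was 0.26 (adjusted p = 0.186). In WSB against C3H the largest were those of Arfgef2, a vesicle trafficking factor, at 0.34 (adjusted p = 0.0524) and Zdhhc3 at -0.24 (adjusted p = 0.183). Arfgef2 passed under 6 of the alternatives, and Shisa7 passed in C3H against B6 once the GC trend was removed.

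The metabotropic GABA-B receptor and the transporters that set the chloride gradient were followed as a list of 4 genes. With limma 0 of 4 passed in each comparison, with 0, 1 and 1 at an unadjusted p under 0.05 in WSB against B6, C3H against B6 and WSB against C3H. Slc12a2, the importer NKCC1, was 7.77 to 11.1 FPKM in B6, 4.52 to 7.42 FPKM in C3H and 6.71 to 8.88 FPKM in WSB. The log2 fold change of Slc12a2 was -0.73 in C3H against B6 (limma adjusted p = 0.0899), -0.27 in WSB against B6 (adjusted p = 0.402) and 0.47 in WSB against C3H (adjusted p = 0.197), and in C3H against B6 it passed with voom weights. The next largest were Gabbr2 at 0.17 in WSB against B6 (adjusted p = 0.333), Gabbr1 at 0.086 in C3H against B6 (adjusted p = 0.552) and Gabbr1 at -0.12 in WSB against C3H (adjusted p = 0.411).

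The neighbours of Gabra2 on chromosome 5 were read to see whether other genes there differed too. Within 2 Mb of Gabra2 the table held 63 genes, of which 19, 20 and 20 were tested in WSB against B6, C3H against B6 and WSB against C3H. The window was set around Gabra2 with its difference known, so its own pass in either comparison with B6 says nothing of the neighbours. In WSB against B6, where 5.9% of all genes passed, 2 of 19 passed, Gabra2 itself and Commd8, a gene of the COMMD family. Commd8 was thus the only neighbour called there. Commd8 (chr5:72156575-72168189, minus strand) was 11.6 to 11.9 FPKM in B6, 9.01 to 12.4 FPKM in C3H and 5.25 to 5.92 FPKM in WSB. It was lower in WSB than in B6 (log2 fold change -1.07, limma adjusted p = 0.000301) and than in C3H (-0.94, adjusted p = 0.00712), and it was -0.13 in C3H against B6 (adjusted p = 0.532). In C3H against B6, where 4.64% of all genes passed, 2 of 20 passed, Gabra2 itself and Gm24776, with 1 read in each B6 mouse and 0 in each C3H mouse, which is under the limit of 3 reads and gives no usable fold. The subunit genes nearest to Gabra2, Gabrg1 and Gabra4, did not pass in either comparison with B6.

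**Figure D4:**
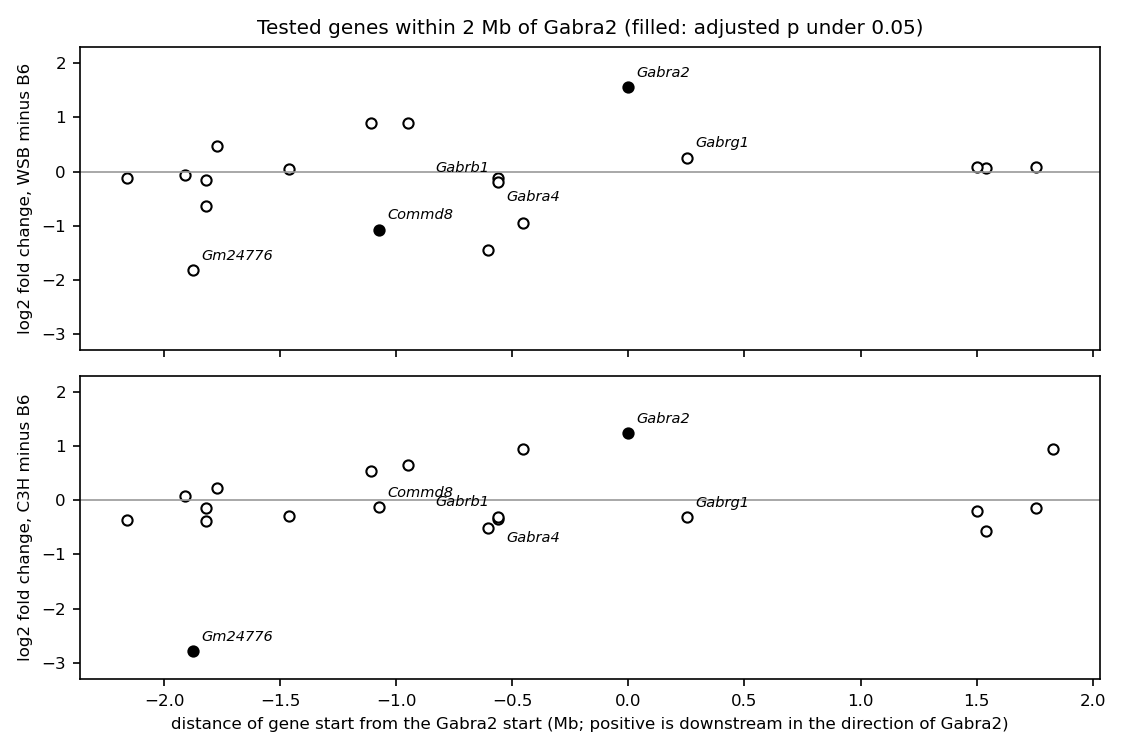
Log2 fold change of (FPKM + 0.1) against B6 (y axes; WSB above, C3H below) for tested genes within 2 Mb of Gabra2, by distance of their start from that of Gabra2 in Mb (x axis), with genes of adjusted p under 0.05 filled. Gabra2 is high in both panels (1.56 and 1.24), Commd8 is low in the upper panel (-1.07), and Gm24776 in the lower panel rests on 1 read per B6 mouse.

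Across the 9 mice, the genes whose log2(FPKM + 0.1) was most like that of Gabra2, among 13010 genes of at least 1 FPKM in mean, were Tcea1-ps1 (Pearson r = 0.97), Gm13200 (0.97), Wdfy1 (0.96), Gm3608 (0.96) and Gm4322 (0.96). The 9 points fall into 3 strains, so r describes the shared order of the strains more than single mice. Wdfy1, an endosomal adaptor gene, was 2.43 FPKM ± 0.234 in B6, 6.43 ± 0.557 in C3H and 7.02 ± 0.241 in WSB (SD, n = 3). Tcea1-ps1 was 0.21 FPKM ± 0.086 in B6, 3.85 ± 1.45 in C3H and 6.78 ± 0.590 in WSB, and Gm3608 was 0.266 ± 0.036, 3.57 ± 0.114 and 5.04 ± 1.11. Gm13200 and Gm4322 had 0 FPKM in all B6 mice, so their B6 values in the correlation are those of the added 0.1. Like Tcea1-ps1 and Gm3608, they reached a mean of 1 FPKM only through the C3H and WSB mice. The r of these genes was thus set in part by how they entered the search, and it is no separate sign of a link with Gabra2. The other members had r from -0.38 (Gabra5) to 0.40 (Gabra3) with Gabra2.

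The cortex label was checked against markers. Of the markers of cortical excitatory neurons, Slc17a7 was 238 to 388 FPKM, Neurod6 was 31.3 to 41.8 FPKM and Tbr1 was 17.0 to 21.6 FPKM over the 9 mice. Markers of tissue that can be cut along with cortex varied between mice of a strain. The 6 striatal markers summed to 105 to 432 FPKM in B6, 98.1 to 264 FPKM in C3H and 77.0 to 208 FPKM in WSB. In C3H, Gabra2 was 19.1, 16.8 and 13.6 FPKM in the mice with striatal sums of 98.1, 183 and 264 FPKM. In WSB, it was 25.1, 20.9 and 16.1 FPKM at striatal sums of 77.0, 155 and 208 FPKM. Gabra2 was thus lower in mice with more striatal marker RNA in both of these strains. In B6, Gabra2 was 5.95, 7.58 and 7.15 FPKM at striatal sums of 105, 236 and 432 FPKM, with no such order. Each order rests on 3 mice and is not particular to striatum. In C3H, Gabra2 also fell as the microglial sums rose (51.9, 56.0 and 61.3 FPKM). It rose with the hippocampal sums in C3H (58.1, 59.2 and 62.1 FPKM) and with the astrocyte sums in WSB (171, 173 and 180 FPKM). The part of striatal tissue in the Gabra2 values was not tested.

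Of 10 marker lists, 1 did not overlap between C3H and B6, the blood markers, which were higher in C3H (552 to 858 against 178 to 214 FPKM). Among single genes, 28.9% did not overlap in C3H against B6, 26.0% in WSB against B6 and 28.6% in WSB against C3H. In WSB against C3H, 1 list (hippocampus) was higher in every WSB mouse and 6 were lower. In WSB against B6, 3 lists were higher in every WSB mouse, those of interneurons (582 to 711 against 540 to 572 FPKM), hippocampus (71.8 to 87.6 against 37.6 to 69.9 FPKM) and blood (248 to 291 against 178 to 214 FPKM). Lower in every WSB mouse were oligodendrocytes (366 to 527 against 679 to 864 FPKM), microglia (43.9 to 48.3 against 50.3 to 58.2 FPKM) and endothelium (17.9 to 24.2 against 30.8 to 34.5 FPKM), the last through Ly6c1 alone. Ly6c1 was at 0 in all WSB mice, while Cldn5 (16.3 to 22.3 against 18.3 to 21.9 FPKM) and Pecam1 (1.47 to 1.84 against 1.64 to 1.76 FPKM) overlapped. Of the microglial markers, Cx3cr1, Tmem119 and Csf1r were lower in every WSB mouse. P2ry12 went the other way (log2 fold change 0.18) and overlapped (9.12 to 13.4 against 8.63 to 12.5 FPKM). Wfs1 made up most of the hippocampal sum in WSB, at 53.5 to 58.1 FPKM against 28.9 to 33.0 FPKM in B6, and the other hippocampal markers overlapped. Among blood markers, Hba-a1 was higher in every WSB mouse (99.5 to 127 against 55.2 to 68.5 FPKM). Hbb-bs (129 to 163 against 121 to 144 FPKM) and Alas2 overlapped between WSB and B6. Among interneuron markers, Pvalb and Vip were higher in every WSB mouse, while Gad1, Gad2 and Sst (410 to 517 against 385 to 434 FPKM) overlapped. In C3H, the hippocampal (58.1 to 62.1 FPKM) and interneuron (548 to 621 FPKM) sums overlapped those of B6. The part of these cell types in the Gabra2 differences from B6 was not tested in either strain.

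**Figure D5:**
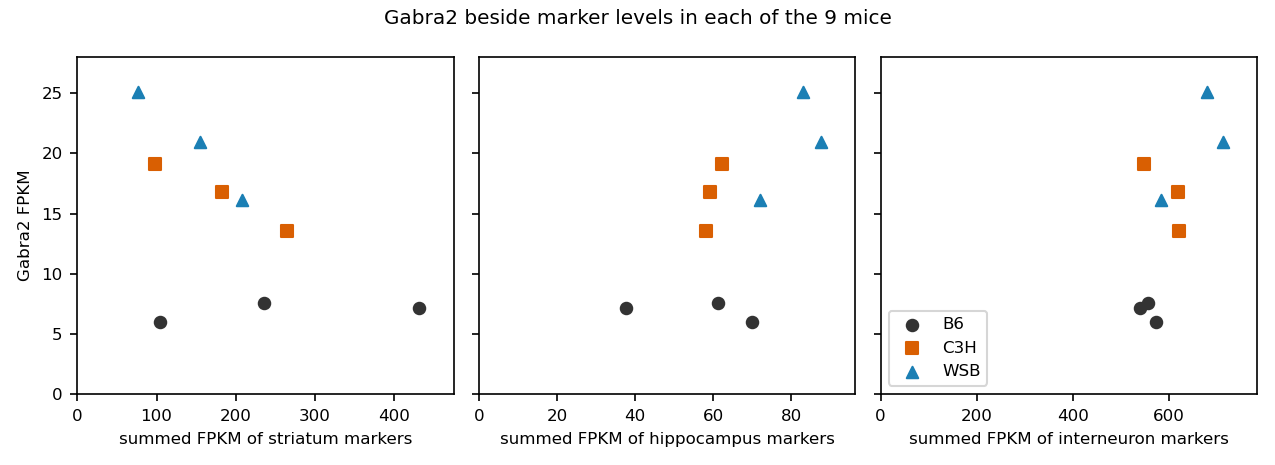
Gabra2 FPKM (y axis) against the summed FPKM of striatal, hippocampal and interneuron markers (x axes) in each of the 9 mice, coloured by strain. Gabra2 is lower in C3H and WSB mice with larger striatal sums (from 19.1 to 13.6 FPKM and from 25.1 to 16.1 FPKM), an order of 3 mice per strain. B6 mice lie between 5.95 and 7.58 FPKM.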

How the data were processed

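Cortex RNA of 9 mice was sequenced in read pairs, 3 mice for each of the strains. The authors trimmed the reads with Cutadapt, and the submitters' processing notes name STAR, HTSeq and DESeq2. Versions and strand settings are not given in the sources used here. The deposited table holds FPKM values per gene and mouse, made by the authors from counts on genes. Multiplied by gene length, 100% of the values were whole reads within 0.01 read, and these recovered reads gave the depths and the voom weights. The limit of 3 reads allows for counting error only. Of 54532 identifiers, 54409 were found in GENCODE M21 (GRCm38) and 53499 had the same coordinates there.

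Differences were tested with limma 3.58.1, run two-sided under R 4.3.3 with a mean-variance trend in eBayes, on log2(FPKM + 0.1), which understates changes of low genes. A gene entered when it averaged 0.1 FPKM or more over the 6 mice compared, 2 strains at once, with p-values adjusted by Benjamini-Hochberg over all genes tested, and a threshold of 0.05. In 10 sets simulated from WSB and B6, 12.6% of limma's calls fell on unchanged genes. Tables were handled in pandas 2.3.3 and figures drawn with matplotlib 3.10.9. The members and lists were chosen with earlier results of these data known, including those on Gabra2. The text names all members, list genes that passed or otherwise the 2 with the largest change, genes within 2 Mb of Gabra2 that passed, and the 5 most like Gabra2. Some genes that this rule names are not reported here. Shisa7, Cox7b2, Gm38562 and Atp10d lie outside it and were chosen after seeing their values. Alternatives were other pseudocounts, filters, scalings, variance priors and weights, a replicate block, GC and length trends, and each mouse left out in turn.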

Additional observations from a re-analysis of the deposited data

How the results depend on the processing

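Gabra2 passed against B6 under each of 18 alternatives in both comparisons, at adjusted p up to 0.0148 in WSB and 0.0259 in C3H. Among the log2 fold changes of all members, 359 kept direction and side of the threshold, 14 reversed and 5 newly passed. Of 270 recomputed counts of list genes called, 230 were unchanged, 9 changed by at most 1.5 times and 31 by more. Of the Gabra2 shares, 12 moved by less than the SD between mice and 3 by more. The count within 2 Mb in WSB against B6 was 3 in place of 2 under 8 of 18 alternatives, with Gm38562, Atp10d or Gm24776 added to Gabra2 and Commd8. In C3H against B6 it was 3 without C3H replicate 2, with Gabrb1 added.

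With voom weights, 1 of the other subunits, 1 gene of the GABA-B and chloride list (Slc12a2) and 1 gene within 2 Mb (Gabra2) passed in C3H against B6, and 1 member (Gabrg1), 1 assembly gene and 2 genes within 2 Mb (Commd8 and Gabrg1) passed in WSB against C3H. A filter of 1 FPKM left 1 gene within 2 Mb in C3H against B6, since Gm24776 was no longer tested. Assembly genes called in WSB against C3H numbered 1 with that filter, 1 with scaling to total reads, 2 with all 3 strains in one fit, 2 with the GC trend removed and 1 with the GC and length trends removed; in C3H against B6, 1 was called with either trend removal. In WSB against B6, 0 were called by eBayes without a trend and 0 with the replicate block. With the GC trend removed, C3H minus B6 became 0.11 for Gabra3 and 0.037 for Gabrg1, and WSB minus C3H became -0.062 for Gabrb1. With GC and length trends removed, C3H minus B6 became 0.078 for Gabra3, 0.015 for Gabrb1 and 0.058 for Gabrg1, and WSB minus C3H became -0.13 for Gabrb1. Counted in reads, which are not per length, the share of Gabra2 was 7.91% in B6, 19.8% in C3H and 20.001% in WSB. The cause of these moves was not tested where none is given.

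Leaving out each mouse in turn, C3H against B6 had 1 to 3 members, 0 to 3 other subunits, 0 to 1 assembly genes and 0 to 1 genes of the GABA-B and chloride list called. WSB against C3H had 0 to 2 members, 0 to 2 other subunits, 0 to 1 genes of the GABA-B and chloride list and 1 to 2 genes within 2 Mb, and WSB against B6 had 0 to 0 assembly genes. The highest counts came without C3H replicate 2, apart from that of genes within 2 Mb, which also reached 2 without WSB replicate 2 (Cox7b2). Log2 fold changes ranged from -0.22 to 0.034 for Gabra4 and from -0.017 to 0.49 for Gabrg1 in WSB against B6, from -0.12 to 0.085 for Gabra3 in C3H against B6, and from -0.074 to 0.18 for Gabra5 and -0.024 to 0.24 for Gabrb1 in WSB against C3H.

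The labels give each strain replicates 1 to 3 and do not say whether same-numbered mice were handled together. Same-numbered mice did not deviate together (correlations of -0.157 to 0.037). With deviations taken from means of 3 mice, this cannot exclude a shared batch. With the replicate block, 754 genes in all were called in WSB against B6 in place of 1224, 480 in C3H against B6 in place of 956 and 531 in WSB against C3H in place of 1182. Without C3H replicate 2 the last 2 counts were 2301 and 2002. With 3 mice per strain and 246 to 490 reads on Gabrg1, small differences in the lower subunits could not be detected.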
